A study of Mus musculus with 8 samples.

Results

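The interferon regulatory factor (Irf) genes were examined in CD11c-positive splenocytes of lupus-prone and control mice. Members were the rows of the deposited count table named Irf1, Irf2, Irf3, Irf4, Irf5, Irf7, Irf8 or Irf9, which gave 8 genes of 13786. RNA came from 4 C57BL/6 and 4 B6.SLE123 female mice, all 7 weeks old, and no treatment is given in the labels. Each sample is called a mouse here, since the labels do not speak of pooling. C57BL/6 is the control strain, and B6.SLE123 is the same background carrying the lupus susceptibility intervals Sle1, Sle2 and Sle3 of a lupus-prone strain on chromosomes 1, 4 and 7. Cells were selected on CD11c, the product of Itgax, which some macrophages, B cells and other leukocytes carry as well as dendritic cells. The genotype field of the labels raises the number in the strain name by 1 from mouse to mouse, so strain was taken from the sample titles.

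Irf proteins are transcription factors that bind GAAA-containing elements through an N-terminal domain marked by conserved tryptophans. IRF3 and IRF7 are phosphorylated after nucleic acid sensing and switch on the type I interferon genes, whereas IRF9 belongs to the complex ISGF3, which carries the signal of the interferon receptor to interferon-stimulated genes. IRF1 activates and IRF2 mostly represses interferon-responsive promoters, IRF5 drives inflammatory cytokine genes below Toll-like receptors, and IRF4 and IRF8 pair with PU.1 or BATF factors. In the spleen IRF8 is required for type 1 conventional dendritic cells, and IRF4 supports type 2 conventional dendritic cells and plasma cells. Because the samples were bulk RNA, fewer cells of a type and less RNA per cell cannot be told apart in any value given here.

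Promoter sequences are shown for 3 members because they differ in response and in the elements they hold. Capitals mark GAS elements, searched as TTCNNNGAA on both strands and known as binding sites of STAT dimers, and in Irf1 also an ETS core, searched as GGAAGT on both strands and found as ACTTCC. Sequences are from RefSeq on GRCm38.p6, run 5′ to 3′ on the strand of the gene, and stop before the transcription start and before any exon annotated in GENCODE M21. Irf8 is shown from chr8:120736108-120736357 on the plus strand, Irf1 from chr11:53769764-53770013 on the plus strand and Irf7 from chr7:141266482-141266674 on the minus strand.
Irf8: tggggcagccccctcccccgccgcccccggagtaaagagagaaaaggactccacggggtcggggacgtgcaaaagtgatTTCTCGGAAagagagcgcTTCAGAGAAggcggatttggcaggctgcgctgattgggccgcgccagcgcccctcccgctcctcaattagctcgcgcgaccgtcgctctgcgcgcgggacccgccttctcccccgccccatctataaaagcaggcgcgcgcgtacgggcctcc
Irf1: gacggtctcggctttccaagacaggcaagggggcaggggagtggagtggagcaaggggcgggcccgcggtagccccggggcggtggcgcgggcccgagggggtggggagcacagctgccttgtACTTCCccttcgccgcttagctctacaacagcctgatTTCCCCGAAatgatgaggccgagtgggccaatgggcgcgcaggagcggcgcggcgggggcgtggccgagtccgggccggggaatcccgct
Irf7: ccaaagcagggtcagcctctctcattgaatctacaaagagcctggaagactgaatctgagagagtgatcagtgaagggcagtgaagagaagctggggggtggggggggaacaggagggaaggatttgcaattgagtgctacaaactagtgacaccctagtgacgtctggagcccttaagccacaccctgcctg
Irf8 held 2 GAS matches, ending 163 and 145 bases before its start, and Irf1 held 1 GAS match, ending 82 bases before its start. A GAS match was present in 7.02% of 32851 promoters of the same 250-base length. The interferon-stimulated response element, searched on both strands as GAAA, any 2 bases and GAAA again, was found in 2.98% of promoters and, among the members, only in Irf2, as GAAAATGAAA. Irf2 also held a GAS match, TTCCGAGAA. Its response element overlapped a match to the ETS-IRF composite element (GGAA, any 2 bases and GAAA), found in 2.3% of promoters. The response element and the composite element both lie among the 34 bases of the Irf2 window that are in annotated exons. The 250 bases before the start of Irf7, Irf4 and Irf5 held none of the 4 motifs. Those of Irf9 held none either, but the RefSeq start used lies 414 bases inside the deposited gene. All 250 bases of that window are in annotated exons, so the region before the gene was not searched for Irf9. Irf3 held an ETS core, which 19.7% of promoters had, and 181 of its 250 bases are in annotated exons. A match is a description of letters, and no binding was measured here.

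Of the 8 Irf genes, 4 passed an adjusted p of 0.05 in the edgeR quasi-likelihood fit over all genes, 2 higher in B6.SLE123 (Irf8 and Irf5) and 2 lower (Irf3 and Irf7). Irf8 and Irf5 rose by 39.5% and 13.8%, while Irf3 and Irf7 had log2 fold changes of -0.65 and -0.44. The share of members called was 50.0%, against 53.4% of all 13786 genes, 26.7% higher and 26.6% lower, so the family was called about as often as the table as a whole. None of the members changed more than 2-fold, whereas 11.1% of all genes did so with an adjusted p below 0.05. The median log2 fold change of the members was 0.04 and that of all genes was -0.002. For 2 members, Irf3 and Irf5, the 4 values of a strain did not overlap those of the other, as was the case for 48.9% of all genes. Values are CPM (counts scaled to a common library size) after TMM scaling of library sizes, and log2 fold changes are B6.SLE123 over C57BL/6.

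**Figure D1:**
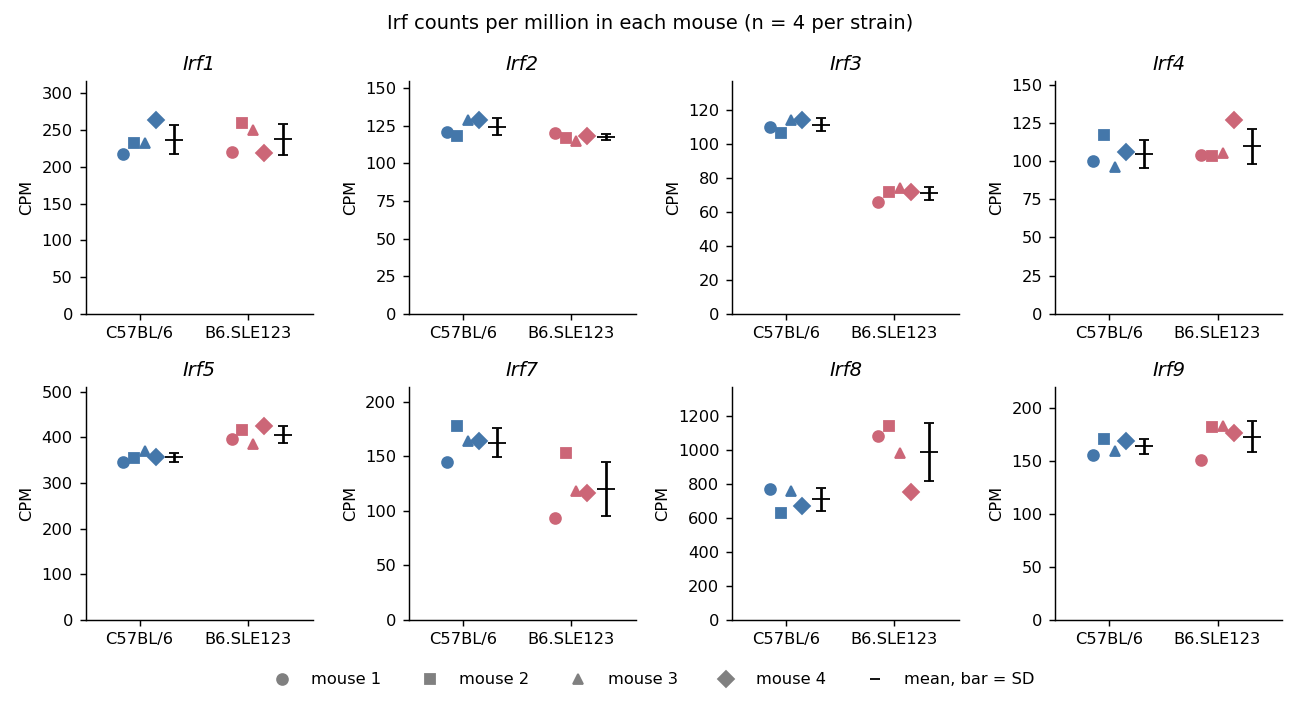
CPM (library-scaled counts, y axes from 0) of the 8 Irf genes in each mouse, with C57BL/6 in blue and B6.SLE123 in red. Marker shapes name the replicate number within a strain and do not pair mice, and black bars give the mean and SD (n = 4). The strains stand apart for Irf3 and Irf5, whereas a single B6.SLE123 mouse reaches the C57BL/6 values for Irf8 and another for Irf7.

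Irf3, the constitutive factor activated below STING, MAVS and TRIF, showed the clearest difference. It was at 110, 106, 114 and 114 CPM in the C57BL/6 mice and at 65.5, 71.8, 74.0 and 71.4 CPM in the B6.SLE123 mice. The strains did not overlap, with all B6.SLE123 values lower. The means were 111 ± 3.99 and 70.7 ± 3.65 CPM (SD, n = 4), with a log2 fold change of -0.65 (SE 0.05, 95% interval from -0.76 to -0.55, adjusted p = 1.57e-06 from edgeR). Among the members it had the smallest adjusted p and the largest absolute log2 fold change.

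Irf3 lies on chromosome 7 from 44997648 to 45002848 in mm10, on the plus strand, with 7 exons after merging its transcripts. This places it among genes from 40 to 50 Mb of chromosome 7, the chromosome of Sle3, and whether that interval covers Irf3 is not given in the sources used here. Within 100 kb of Irf3, the table held 12 other genes, of which 3 rose, 5 fell and 4 were not called. Over the whole table, 26.7% of genes rose and 26.6% fell. Cpt1c, a carnitine palmitoyltransferase family gene, rose by 3.79 on the log2 scale, from a mean of 1.39 to 19.2 CPM. Fcgrt, the neonatal Fc receptor, had a log2 fold change of -1.26 and Rcn3 of -1.95, while Scaf1, which begins just past the end of Irf3, was at -0.05 (adjusted p = 0.406 from the same edgeR fit). These neighbours were named after their values were seen. Of the 12, only Cpt1c, Rcn3 and Fcgrt changed more than 2-fold with an adjusted p below 0.05 from edgeR, where 11.1% of all genes did. Called changes within 100 kb of Irf3 ran in both directions. Whether they are connected with the change of Irf3 was not tested. Bcl2l12, a BCL2-like gene on the opposite strand, shares 88 exonic bases with Irf3 (2.6% of its exonic length) and was at a mean of 14.0 CPM in C57BL/6 and 10.9 CPM in B6.SLE123. A sequence difference between the strains that alters read alignment was not tested.

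Irf7, the interferon-inducible partner of IRF3 and the main factor for interferon alpha in plasmacytoid dendritic cells, was lower and more variable. It was at 145, 178, 164 and 164 CPM in C57BL/6 mice and at 93.1, 153, 118 and 116 CPM in B6.SLE123 mice. Of the B6.SLE123 values, 3 lay below all C57BL/6 values, and that of B6.SLE123 replicate 2 lay within their range. Means were 163 ± 13.9 and 120 ± 24.9 CPM (SD, n = 4), the log2 fold change was -0.44 (SE 0.12, 95% interval from -0.71 to -0.16) and the adjusted p was 0.0121 by edgeR. The coefficient of variation was 8.54% in C57BL/6 and 20.7% in B6.SLE123. Irf7 also lies on chromosome 7, from 141262706 to 141266481 on the minus strand, far from Irf3. Of the 11 other genes within 100 kb, 7 rose and 2 fell, where 26.7% of all genes rose and 26.6% fell. Among the 7, Sct, Drd4 and Eps8l2 had means of at most 6.4 CPM, and Hras, Rnh1 and Phrf1 rose by 0.28 or less on the log2 scale. These neighbours were named after their values were seen. Phrf1, on the opposite strand, shares 45 exonic bases with Irf7 (1.2%) and rose by 0.10 on the log2 scale (adjusted p = 0.0357 from edgeR).

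Irf8, the lineage factor of type 1 conventional dendritic cells, was the most abundant member by count. It was at 771, 630, 759 and 671 CPM in C57BL/6 mice and at 1080, 1140, 982 and 749 CPM in B6.SLE123 mice. B6.SLE123 replicates 1, 2 and 3 were above all C57BL/6 mice, and replicate 4 lay within the C57BL/6 range. The means were 708 ± 68.6 and 987 ± 171 CPM (SD, n = 4), with a log2 fold change of 0.48 (SE 0.12, 95% interval from 0.22 to 0.74, adjusted p = 0.00514 from edgeR). Irf8 made up 33% to 39.3% of all counts of the 8 members in C57BL/6 and 37.4% to 48.5% in B6.SLE123. It lies on chromosome 8 from 120736358 to 120756694 on the plus strand. Its 2 neighbours in the table within 100 kb, Cox4i1 and Emc8, were not called, where 53.4% of all genes were.

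Irf5, which carries signals of Toll-like receptors to cytokine genes, had a small but even difference. It was at 345, 355, 370 and 356 CPM in C57BL/6 mice and at 397, 417, 386 and 425 CPM in B6.SLE123 mice. All B6.SLE123 mice were above all C57BL/6 mice, and the coefficients of variation were 2.8% and 4.41%. The log2 fold change was 0.19 (SE 0.04, 95% interval from 0.09 to 0.28, adjusted p = 0.00414 from edgeR). Irf5 lies on chromosome 6 from 29526625 to 29541871 on the plus strand and shares 411 exonic bases (14.1%) with Tnpo3, a nuclear import gene on the opposite strand, which rose by 0.17 on the log2 scale (adjusted p = 0.00244 from edgeR). The libraries were made with a stranded kit, but whether counting used the strand is not given in the sources used here, so the reads of the shared bases are uncertain.

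**Figure D2:**
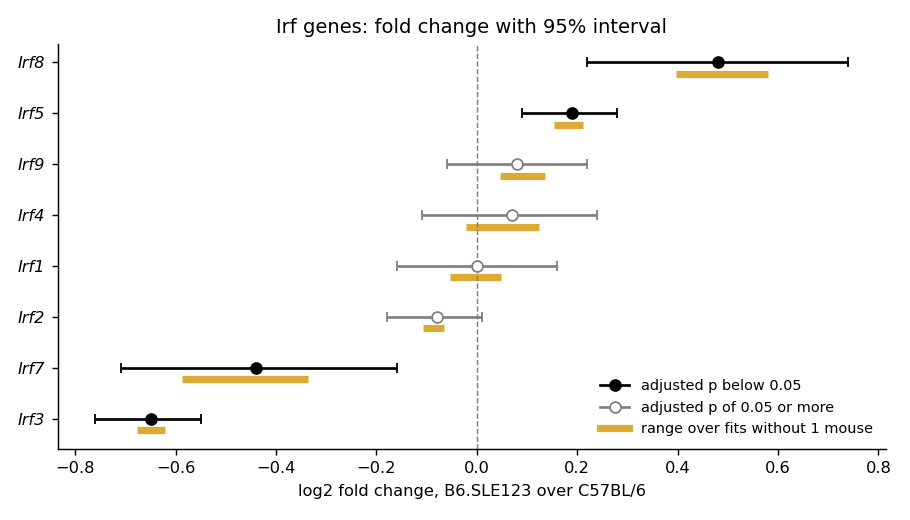
Log2 fold change of each Irf gene (x axis, B6.SLE123 over C57BL/6) with its 95% interval from edgeR, filled where the adjusted p was below 0.05. Yellow bars span the values when each of the 8 mice was left out in turn, which stay on one side of 0 for all members but Irf1 and Irf4 and run from 0.397 to 0.581 for Irf8 and from -0.677 to -0.622 for Irf3.

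The other 4 members were not called. Irf1, the interferon gamma-inducible activator, ranged from 217 to 264 CPM in C57BL/6 and from 219 to 260 CPM in B6.SLE123, with a mean of 237 CPM in both. Gm17334, on the opposite strand, shares 135 exonic bases with it (3.4%). The interval of Irf1 allowed a difference from -10.4% to 12.1%. Irf2, the repressor, ranged from 118 to 129 CPM and from 115 to 120 CPM, and its interval ran from -11.5% to 0.848% (adjusted p = 0.128 from edgeR). Both strains therefore overlapped for the activator and for the repressor.

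Irf4 was at 99.7, 117, 95.8 and 106 CPM in C57BL/6 mice and at 104, 103, 105 and 127 CPM in B6.SLE123 mice. The highest value belonged to B6.SLE123 replicate 4, the same mouse that was lowest of its strain for Irf8. The log2 fold change of Irf4 was 0.07 (95% interval from -0.11 to 0.24, adjusted p = 0.509 from edgeR) and was -0.02 without that mouse. Irf9, the DNA-binding subunit of ISGF3, ranged from 156 to 171 CPM and from 151 to 183 CPM, with a log2 fold change of 0.08 (adjusted p = 0.308 from edgeR). Its lowest value was in B6.SLE123 replicate 1, the mouse with the lowest Irf7, and without it the log2 fold change was 0.14 (adjusted p = 0.0286 from edgeR). Irf9 shares 123 exonic bases (2.3%) with Rnf31 on the same strand, so those reads are uncertain in any count.

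To compare levels between genes, CPM was divided by the merged exon length in GENCODE M21. On this per-kb scale C57BL/6 cells had the order Irf5 (123 ± 3.44), Irf8 (89.2 to 109 over the mice), Irf1 (59.6 ± 4.95), Irf7 (43.1 ± 3.68), Irf3 (32.3 ± 1.16), Irf9 (30.4 ± 1.35), Irf4 (21.4 ± 1.9) and Irf2 (16.8 ± 0.767), each in CPM per kb (mean ± SD, n = 4, where not given as a range). Of these neighbours in the order, the values of single mice overlapped only for Irf3 and Irf9. In B6.SLE123 mice Irf8 ranged from 106 to 161 CPM per kb and Irf5 from 133 to 146, so that these 2 could no longer be ordered. Irf7 (24.6 to 40.6) overlapped Irf9 (28.1 to 34.1), and Irf3 (19 to 21.5) overlapped Irf4 (21.0 to 25.9). The order depends on the length used. With the transcript of the longest coding sequence, which is 2847 bases for Irf8 against 7055 merged exonic bases, Irf8 came first in C57BL/6 at 249 CPM per kb and Irf5 second at 159. In B6.SLE123 these lengths put Irf8 above Irf5, at 347 against 181 CPM per kb, and Irf3 above Irf4, at 34.8 against 23.0. They also turned the order of Irf4 and Irf2 in C57BL/6, to 22 against 49.7 CPM per kb. In B6.SLE123, Irf3 was above Irf2 with merged exons, at 20.5 against 15.9 CPM per kb. With transcript lengths it was below Irf2, at 34.8 against 47.0. No order is therefore read here between Irf5 and Irf8, between Irf3 and Irf4, between Irf3 and Irf9, or between Irf4 and Irf2. In B6.SLE123 none is read either between Irf3 and Irf2, between Irf7 and Irf9 or between Irf7 and Irf4. Irf7 merges into 1 exonic block of 3776 bases because some of its annotated transcripts keep introns.

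Ratios between members were taken within each mouse, so that library scaling hardly enters. Irf8 over Irf4, a ratio of the factors of type 1 and type 2 dendritic cells, was 2.95, 2.43, 2.99 and 2.66 on the log2 scale in C57BL/6 mice and 3.39, 3.46, 3.22 and 2.56 in B6.SLE123 mice. The first 3 B6.SLE123 mice were above all C57BL/6 mice, and replicate 4 was within their range. The difference of 0.40 was within the spread between mice (exact two-sided permutation test, p = 0.143, adjusted p = 0.343 over 3 ratios). Irf1 over Irf2 differed by 0.08 (exact p = 0.343) and Irf7 over Irf3 by 0.20 (exact p = 0.286), with overlapping strains in both cases. Without B6.SLE123 replicate 2 these differences were 0.033 and 0.080, and without replicate 1 they were 0.130 and 0.275. Irf1 over Irf2 was also at 0.053 without C57BL/6 replicate 1 and at 0.045 without B6.SLE123 replicate 3. The smallest p that 4 against 4 mice allow is 0.0286.

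Itgax itself, the gene of the selection marker, rose by 0.22 on the log2 scale (adjusted p = 0.00942 from edgeR), from 1330 ± 77.9 to 1540 ± 93.4 CPM (SD, n = 4), and Ptprc, which encodes the pan-leukocyte antigen CD45, was at -0.05 (adjusted p = 0.462). Relative to Itgax, all B6.SLE123 mice remained below all C57BL/6 mice for Irf3. This was also so for Irf7 and Irf2, which overlapped in CPM. For Irf2 the strains were barely apart, with the highest B6.SLE123 value at -3.58 and the lowest C57BL/6 value at -3.57. The rise of Itgax lowers every gene on this scale in B6.SLE123, and the share of all genes without overlap on it was not computed. The mean difference on the log2 scale was -0.87 for Irf3, -0.67 for Irf7 and -0.30 for Irf2. Irf5, at -0.03, and Irf8, at 0.25, overlapped between strains on this scale. The absence of overlap for Irf5 in CPM was therefore not seen relative to Itgax.

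Genes around the family were read from lists written from general knowledge, and counts are from the same edgeR fit. Each count is to be read against the table as a whole, in which 53.4% of genes were called, 26.7% higher and 26.6% lower. Among factors that bind DNA with IRFs or act as their cofactors, 3 of 16 rose and 7 fell, 10 called in all, a share not far from that of the table. Ikzf1, the Ikaros gene and the most abundant of them, rose by 0.19. Jun, an AP-1 subunit, had a log2 fold change of -1.13, Batf2 of -1.04 and Ets1 of -0.56. Spi1, which encodes PU.1, rose by 0.14 and Batf3, an AP-1 partner of IRF8, fell by 0.14 on the log2 scale; both were named after their values were seen.

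Upstream, 6 of 27 sensors, adaptors and kinases that lead to IRF activation rose and 12 fell, against the 26.7% and 26.6% of all genes that did so. Tlr8 and Tlr4, endosomal and surface Toll-like receptors, had log2 fold changes of -1.89 and -1.77, and Tlr3, the sensor of double-stranded RNA, rose by 0.89. Unc93b1, the chaperone of endosomal Toll-like receptors and the most abundant of the list, was at 1170 ± 58.4 CPM in C57BL/6 and 921 ± 56.8 CPM in B6.SLE123 (SD, n = 4), a log2 fold change of -0.34. Of the 17 genes of interferon receptors and JAK-STAT signalling, 6 rose and 1 fell. The rises included Jak2 (0.57) and the feedback inhibitors Socs1 (0.60) and Socs3 (0.60). The 1 gene that fell was Ifnar2, a chain of the type I interferon receptor, at -0.40, named after its value was seen. Ptpn6, a phosphatase and the most abundant gene of this list, was at -0.09 (adjusted p = 0.151 from edgeR). Of 21 interferon genes in the list, 1 was in the table, the type II interferon gene Ifng, with summed levels from 0.307 to 0.662 CPM in C57BL/6 and from 0.157 to 0.316 CPM in B6.SLE123.

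**Figure D3:**
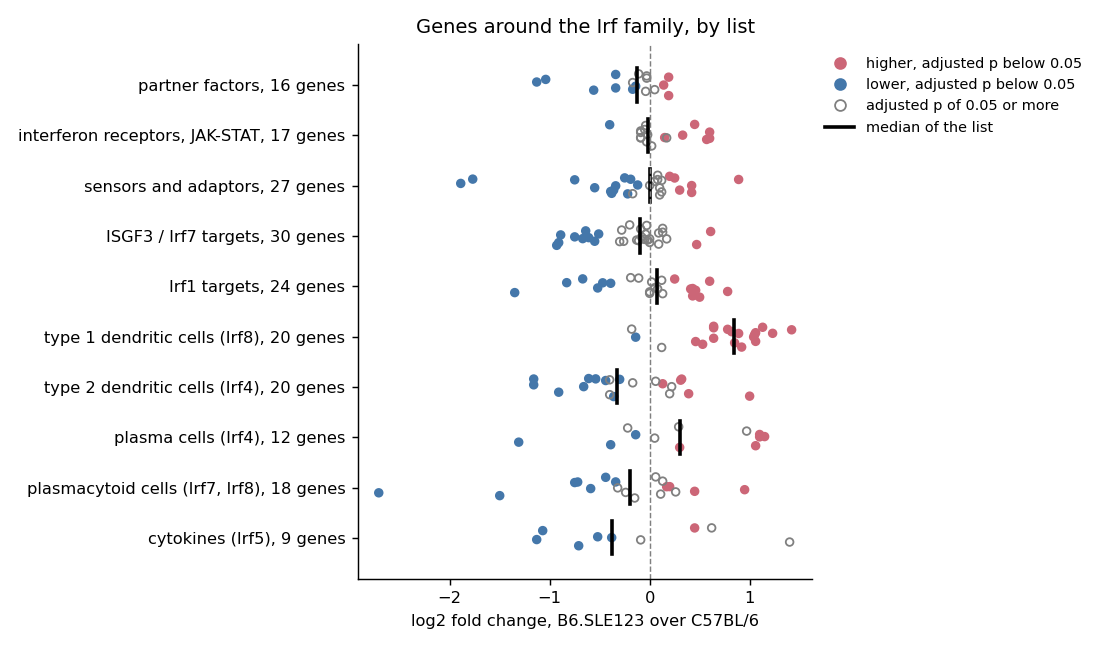
Log2 fold change (x axis, B6.SLE123 over C57BL/6) of the genes in 10 lists around the Irf family, 1 point per gene, coloured where the adjusted p was below 0.05, with the median of each list as a black bar. The list tied to Irf8 has a median of 0.84, whereas the lists of ISGF3 targets and Irf1 targets have medians of -0.10 and 0.07 with genes on both sides of 0.

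Targets of ISGF3 and IRF7 gave 2 rises and 9 falls among 30 genes, with a median log2 fold change of -0.10. Oas1g, Ifit3b and Ifit3, antiviral genes, had log2 fold changes of -0.93, -0.91 and -0.89. Ifit3 was at 44.6, 69.1, 56.1 and 62.9 CPM in C57BL/6 mice and at 19.8, 38.6, 27.4 and 39.6 CPM in B6.SLE123 mice. B6.SLE123 replicate 1 was lowest of all mice for Ifit3, as it was for Irf7. Ly6e, the most abundant of the list, was at -0.11 (adjusted p = 0.241 from edgeR). Ifit3 and Ifit3b are close copies, as are the Oas1 genes, so reads may be split between them. The summed level of the list ran from 3130 to 3440 CPM in C57BL/6 and from 2670 to 3420 CPM in B6.SLE123, and the strains overlapped.

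Targets of IRF1 moved in both directions, 9 up and 6 down of 24, with a median of 0.07, where 53.4% of all genes were called. Their summed level ran from 5380 to 5770 CPM in C57BL/6 and from 6000 to 6670 CPM in B6.SLE123, without overlap. Most of the rise of this sum came from a few abundant genes. Ciita was at means of 924 and 1310 CPM, Tap1 at 393 and 528, and Nlrc5 at 259 and 347. Psmb9 was at 224 and 307 CPM, and Psmb8 at 210 and 278. These genes were named after their values were seen. Cxcl9, a T cell-attracting chemokine, rose by 0.78, whereas the guanylate-binding genes Gbp6 and Gbp3 had log2 fold changes of -1.35 and -0.83. B2m, the light chain of MHC class I and the most abundant of the list, was at 0.00 (adjusted p = 0.994 from edgeR). Of 9 cytokine genes linked to IRF5, 1 rose and 5 fell, among them Ccl3 (-1.13), Ccl4 (-1.07) and Cxcl10 (-0.52), the last of which also stands in the IRF1 list. Ccl5, the most abundant, was at -0.09 (adjusted p = 0.491 from edgeR). The rise of Irf5 thus stood beside a median of -0.38 in this list.

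Genes tied to IRF8 in type 1 conventional dendritic cells gave 17 of 20 higher, 1 lower and a median of 0.84. Itgae, Xcr1 and Ifi205 rose by 1.42, 1.23 and 1.13 on the log2 scale, and Wdfy4, needed for cross-presentation, rose by 0.85 from 1850 ± 121 to 3340 ± 189 CPM (SD, n = 4). Xcr1, the receptor for XCL1, was at 130, 89.7, 117 and 110 CPM in C57BL/6 mice and at 271, 341, 249 and 188 CPM in B6.SLE123 mice. Replicate 4 was again the lowest B6.SLE123 mouse, as for Irf8, but for Xcr1 it was above all C57BL/6 mice. The exceptions in the list were Batf3, which fell, and Cadm1 (-0.18, adjusted p = 0.165 from edgeR) and Nfil3 (0.12, adjusted p = 0.433), which were not called.

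**Figure D4:**
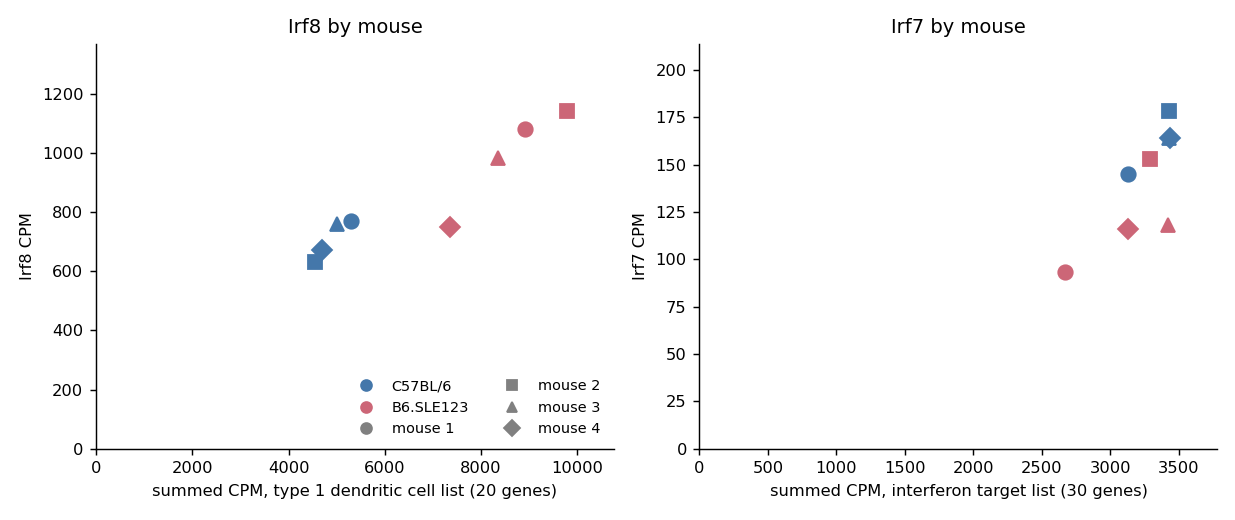
CPM of Irf8 against the summed CPM of the 20 genes of the type 1 dendritic cell list (left) and of Irf7 against the summed CPM of the 30 ISGF3 and IRF7 target genes (right), 1 point per mouse, C57BL/6 in blue and B6.SLE123 in red, with marker shapes for the replicate number. On the left B6.SLE123 replicate 4 is at 749 CPM of Irf8 and 7350 summed CPM, with Irf8 at C57BL/6 levels and the list above the C57BL/6 range of 4540 to 5300. On the right B6.SLE123 replicate 1 is lowest on both axes.

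Of 20 genes tied to IRF4 in type 2 conventional dendritic cells, 5 rose and 9 fell, with a median of -0.33. Sirpa, the most abundant, was at 1780 ± 85.4 CPM in C57BL/6 and 950 ± 101 CPM in B6.SLE123 (SD, n = 4). Zeb2 and Il1b had log2 fold changes of -1.16 each, and Ccr6, a chemokine receptor, rose by 1.0. Of 12 genes tied to IRF4 in plasma cells, 5 rose and 3 fell. Jchain, which joins polymeric antibodies, rose by 1.1 and Tent5c by 1.15, while Prdm1, the gene of BLIMP1, had a log2 fold change of -1.31. Slamf7, the most abundant of them, was at -0.14. Of 18 genes of plasmacytoid dendritic cells, Irf7 among them, 4 rose and 7 fell. Cox6a2 had a log2 fold change of -2.71 and Klk1, at means of 4.05 and 1.41 CPM, of -1.50, whereas Pacsin1 rose by 0.95 and Bcl11a, the most abundant, by 0.17. In the same list Siglech rose by 0.45, Spib and Ly6d were at -0.34 and -0.59, and Tcf4, Bst2, Ccr9 and Runx2 were not called. These further genes were named after their values were seen.

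Markers of other cells differed between the same samples. All 15 genes of a red pulp macrophage list fell, with summed levels from 14700 to 18800 CPM in C57BL/6 and from 2100 to 4180 CPM in B6.SLE123. The ranges were 451 to 526 against 167 to 236 CPM for 5 marginal zone macrophage genes (4 fell), 793 to 878 against 448 to 608 for 10 monocyte genes (4 fell), and 129 to 140 against 35.7 to 58.7 for 9 neutrophil genes (3 rose, 3 fell). Most of the neutrophil sum was Csf3r, at means of 76.5 and 25.2 CPM, and Mmp9, at 47.0 and 10.6 CPM, which both fell. S100a8 and S100a9 were at means of 2.51 to 4.41 CPM and not called. The genes that rose, Ngp, Camp and Ltf, had means of at most 1.92 CPM. The 10 B cell genes ran from 788 to 893 and from 682 to 805 CPM (1 rose, 7 fell), the 9 T cell genes from 357 to 409 and from 429 to 555 (2 rose, 1 fell), and the 9 NK cell genes from 77.9 to 108 and from 61.6 to 89.6 (1 fell). Most of the T cell sum was Cd4, at means of 258 and 296 CPM (not called), and the genes that rose were Tcf7 and Il7r. The T cell receptor subunit genes Cd3d, Cd3e and Cd3g were at means of 2.22 to 4.13 CPM, with log2 fold changes of -0.32, -0.49 and -0.21, none of them called. Without B6.SLE123 replicate 1, 5 T cell and 4 NK cell genes were called, and 2 NK cell genes without C57BL/6 replicate 3 or without B6.SLE123 replicate 3. These monocyte, neutrophil and T cell genes were named after their values were seen. The 10 erythroid genes ran from 192 to 389 and from 246 to 298 CPM (1 rose, 8 fell), and 10 proliferation genes from 484 to 542 and from 911 to 1230 (10 rose). Most of the erythroid sum in B6.SLE123 was Tfrc, the 1 gene that rose, at means of 114 and 242 CPM. The 8 that fell included Hbb-bs, at means of 63.1 and 7.97 CPM, and Hba-a1, at 44.3 and 9.63 CPM. These erythroid genes, too, were named after their values were seen. The 7 genes of CD11c-selected antigen-presenting cells ran from 25000 to 28700 and from 30200 to 31400 CPM (6 rose). Of all these markers, only Hba-a2 was at 0 counts in every mouse of a strain, B6.SLE123. The part of these shifts in the Irf values was not tested.

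The genes with the nearest profile to each member over the 8 mice were found by the root mean square difference of log2 CPM after removing each gene's own mean, among 9081 genes with at least 10 CPM on average. Nearest to Irf3 were Smg9 (0.0333) and Zscan26 (0.0432), small beside the spread of Irf3 about its mean of 0.332. Smg9 was at 42.9, 42.0, 44.2 and 44.1 CPM in C57BL/6 mice and at 25.7, 27.1, 30.1 and 28.9 CPM in B6.SLE123 mice, and it lies on chromosome 7 from 24399619 to 24422778. Nearest to Irf8 were Ece1 (0.0783) and P2ry14 (0.0804), against a spread of 0.298. Irf7 had no profile as close, with Stx16 (0.115) and Wdr45 (0.126) nearest against a spread of 0.301. For Irf5 the nearest were Mfsd12 and Etv6, for Irf2 Ywhab and 2510039O18Rik, for Irf9 Kif9 and Poli, for Irf4 Ddr1 and Tmem8, and for Irf1 Emg1 and Gpank1. Nothing is read from these profiles about function or control.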

How the data were processed

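RNA of CD11c-positive splenocytes was sequenced from 4 C57BL/6 and 4 B6.SLE123 mice. The authors used FastQC and cutadapt before alignment by STAR to the mm10 genome and counting by featureCounts, and deposited raw counts per gene and mouse for 13786 protein-coding genes. Totals ran from 25761789 to 32931045 counts in C57BL/6 and from 25563070 to 37367094 in B6.SLE123. No gene had a median under 5 counts in both strains. The table's remaining columns hold the authors' DESeq2 comparison and were not used. Symbols turned into dates were restored for 21 genes.

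Counts were scaled by TMM and tested across all genes with edgeR 4.0.16 in R 4.3.3 (quasi-likelihood F test, Benjamini-Hochberg adjustment, threshold 0.05). Log2 CPM used a prior count of 2. Ratios were compared by exact two-sided permutation tests in scipy 1.17.1. The fit was tested on simulated counts. Named genes were the members, the most abundant gene by CPM (gene lengths were not used here) and up to 3 called genes of largest absolute change (100 counts or more on average in either strain) in each non-marker list, Itgax, Ptprc and the 2 nearest profiles of each member. Members and lists were chosen with earlier results of these data known. The labels give no batch. The labels do not say whether each sample is 1 animal, so p-values measure only the spread between these samples, which may be technical. Alternatives were relative log expression factors, at least 10 counts in every sample, DESeq2 1.42.0, limma-voom (limma 3.58.1), the replicate number as a block, other thresholds, a prior count of 0.5 and each mouse left out in turn.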

Additional observations from a re-analysis of the deposited data

Results flagged for a closer look

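Among 80 sets of 4 mice examined, 6 held a mouse far from the other 3, where chance gives about 4. Irf4 was at 6.99 log2 CPM in B6.SLE123 replicate 4, against 6.69 to 6.72 in the other mice of the strain. Irf5 minus Itgax was -1.72 on the log2 scale in C57BL/6 replicate 3, against -1.98 to -1.93 in the others. The summed level of the IRF partner factors was 2570 CPM in B6.SLE123 replicate 3 (others 2390 to 2410), that of the ISGF3 and IRF7 targets 3130 CPM in C57BL/6 replicate 1 (others 3430 to 3440), that of the IRF1 targets 5770 CPM in C57BL/6 replicate 4 (others 5380 to 5420), and that of the plasma cell genes 911 CPM in B6.SLE123 replicate 3 (others 832 to 841).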

How the results depend on the processing

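Irf3, Irf5, Irf7 and Irf8 kept their direction and an adjusted p below 0.05 under all 13 alternative fits. The log2 fold change ran from -0.677 to -0.622 for Irf3, from 0.154 to 0.211 for Irf5, from -0.587 to -0.336 for Irf7 and from 0.397 to 0.581 for Irf8, in each case set by the fits without 1 mouse. Irf2 stayed between -0.107 and -0.065 without a call. Requiring a more than 2-fold change beside an adjusted p below 0.05 left 0 members and 1524 of all genes. An adjusted p below 0.01 left 3 members, without Irf7.

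Directions turned only for values near 0. Irf1 was at -0.010 with at least 10 counts in every sample and between -0.054 and 0.049 without 1 mouse, and Irf4 between -0.021 and 0.124. Irf9 was between 0.046 and 0.135, with an adjusted p of 0.0286 from edgeR without B6.SLE123 replicate 1, which made 5 members called. Across the fits without 1 mouse, genes called over the table numbered from 6496 to 7013, and genes of all lists from 165 to 182. Single lists moved more, with NK cell genes from 1 to 4 and T cell genes from 3 to 5, both highest without B6.SLE123 replicate 1. Ifng was called in 5 of the 13 alternatives. With at least 10 counts in every sample, 3 neutrophil and 5 erythroid genes were called. The ratio differences ran from 0.292 to 0.601 for Irf8 over Irf4, from 0.033 to 0.130 for Irf1 over Irf2 and from 0.080 to 0.275 for Irf7 over Irf3.

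With the replicate block, 4 members and 7183 genes were called, and no call on a member changed. Called ISGF3 and IRF7 targets went from 11 to 15, type 2 dendritic cell genes from 14 to 18 and NK cell genes from 1 to 4. The labels do not pair the mice. Correlations of the deviations from the strain means were 0.077, 0.172, 0.060 and 0.105 for same-numbered mice, and 3 of the 4 C57BL/6 mice were closest to the mouse of their own number. The exception was C57BL/6 replicate 3, closest to B6.SLE123 replicate 1 (0.074). This is a hint of pairing from the data, not from the design, and the numbers were not treated as pairs.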
